A study of Mus musculus with 8 samples.

Results

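The base of the cochlea, whose sensory strip (the organ of Corti) answers to high sound frequencies, was compared between Dicer1 conditional knockout (cKO) mice and littermate controls at postnatal day 16. The comparison rests on 4 of the 8 arrays of the study, chosen by their sample titles: cKO base replicates 1 and 2 and control base replicates 1 and 2. The cKO mice carried Atoh1-Cre and Dicer1(flox/flox). The controls carried Atoh1-Cre and Dicer1(flox/wt), so the Cre transgene and 1 floxed allele were shared by both groups. Atoh1-Cre recombines mainly in hair cells, whereas the RNA came from the whole dissected strip, in which hair cells are a minority. Each sample pooled the basal segments of both cochleae of 1 mouse, so 2 mice stand for each genotype, and the other 4 arrays hold the apical segments.

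Dicer1 cuts precursor hairpins into mature microRNAs, which lower the level and translation of messenger RNAs that carry matching sites. Hair cells turn sound into electrical signals through an actin-filled bundle at their apical surface and pass them to neurons at ribbon synapses, and they depend on microRNAs of the miR-183 family. They sit among supporting cells, close to the neurons of the spiral ganglion, the pigmented and ion-pumping stria vascularis, fibrocytes and the marrow-bearing bone of the cochlear wall.

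Signals are given as log2 of the MAS5 intensity throughout, and a gene stands for its probe set of highest mean. The 4 basal arrays had median signals of 67 to 76.2 at a common trimmed mean of 500, and their 3′ to 5′ log2 ratios were 1.12 to 1.49 for Gapdh and 0.68 to 0.79 for Actb. Genes were tested where their mean lay above the 40th percentile of all probe sets, a log2 signal of 5.27, which left 13221 of 18193 genes. The organ of Corti label was met by the supporting cell markers Sox2, Gjb2, Gjb6, Fgfr3 and Prox1, all above that level on every basal array. Of 7 hair cell markers, Myo7a, Gfi1, Otof and Calb2 lay above it on all 4 arrays. Slc26a5, which encodes prestin, the motor of outer hair cells, lay under it on all of them (4.24, 2.06, 1.73 and 1.41 on control base 1, control base 2, cKO base 1 and cKO base 2). Markers of strial pigment cells, neurons, Schwann cells, macrophages, neutrophils, red cell precursors and bone were present as well.

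The control basal arrays were unlike each other. Their log2 values correlated at r = 0.928 across genes, against 0.978 for the cKO basal arrays, and each control array correlated more closely with both cKO arrays (0.953 to 0.972) than with the other control. Of the 13221 genes, 12.9% differed by more than 2-fold between the controls and 2.33% between the cKO arrays, with values under 5.27 raised to it. Control base 1 was low in genes of the stria: Dct, a melanin enzyme, read 5.96 there and 13.88 on control base 2, Kcne1, a potassium channel subunit of strial marginal cells, 2.85 and 10.45, and Gpnmb, a melanosome glycoprotein, 3.85 and 11.26. Dnase1 and Hpse, a heparan sulfate-cleaving enzyme, were among the 10 genes lowest on control base 1 as well. It was high in genes of excitable cells, such as the sodium channel Scn8a (11.15 and 8.14) and Nrg1, an axonal growth factor (9.59 and 6.68). Both cKO arrays read near control base 2 for the strial genes and between the controls for the neuronal ones.

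The control mice also differed in sex-linked genes. Xist, the RNA that coats the inactive X chromosome, read 12.39 on control base 1 and 6.93, 7.13 and 6.28 on control base 2, cKO base 1 and cKO base 2. The Y-linked gene Uty read 3.52 on control base 1 and 8.57, 8.54 and 8.27 on the others. Control base 1 was thus the only basal array with high Xist and low Uty. The results below therefore give both control arrays.

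**Figure D1:**
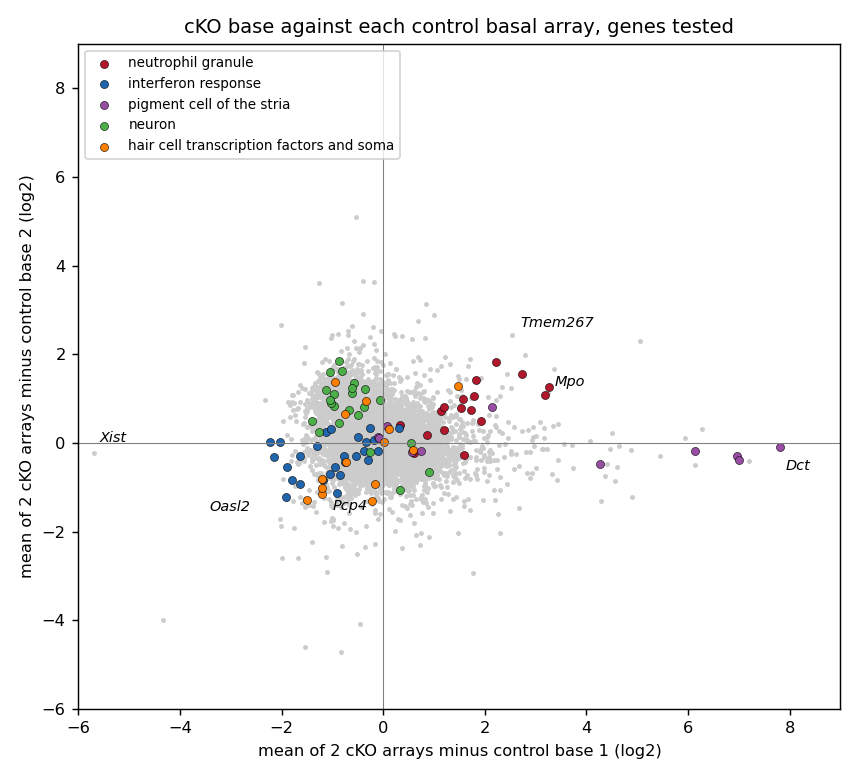
Mean log2 signal of the 2 cKO basal arrays minus control base 1 (horizontal axis) and minus control base 2 (vertical axis) for each of the 13221 genes tested (grey), with members of 5 gene lists coloured. Neutrophil genes lie above 0 on both axes except Anxa1 and Itgb2l, which lie below 0 on the vertical axis, most interferon genes lie below 0 on both, pigment genes spread along the horizontal axis only, and most neuronal genes lie left of 0 and above 0.

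Dicer1 itself read 9.37 and 9.04 on the control arrays and 9.30 and 9.06 on the cKO arrays, a difference of -0.02 ± 0.22 (log2, SE; limma adjusted p = 1), with the sign turning under another scaling (0.01 after quantile normalization). Its second probe set read 7.83 and 8.42 against 7.91 and 7.77. The groups overlapped on both probe sets. Whether the probes cover the floxed exons is unknown here, so these values check neither the labels nor recombination.

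In the base, 0 of 13221 genes (0%) had an adjusted p under 0.05 by limma, whereas 413 genes (3.12%) had an unadjusted p under 0.05, 217 higher in the cKO (1.64%) and 196 lower (1.48%). limma without the intensity trend called 1 gene, Tmem267, and without control base 2 the count was 37. In bulk RNA, fewer cells of a type and less RNA per cell cannot be told apart, and p-values here rest on 2 mice per genotype. Because the controls were unlike, genes were then ordered by the gap between the groups, the distance between their nearest arrays with values under 5.27 raised to it. Both cKO arrays lay above both controls for 1734 genes (13.1%) and below both for 2067 (15.6%). A gap of at least 1 log2 unit was found for 13 genes on the higher side (0.0983%) and 4 on the lower (0.0303%). Leaving out control base 1 or 2 raised that count from 17 to 266 or 414, as fewer arrays then had to be cleared.

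The widest gap belonged to Tmem267, which encodes a little-studied transmembrane protein. It read 5.67 and 5.79 on the control arrays and 8.28 and 8.15 on the cKO arrays, a 5.59-fold difference (2.48 ± 0.25, limma adjusted p = 0.168). Its cKO values were alike and stood far above either control. Pnmt, the enzyme that makes adrenaline from noradrenaline, read 5.71 and 5.67 in the controls against 7.17 and 7.21 in the cKO (1.5 ± 0.29). Esyt3, an extended synaptotagmin that tethers membranes, read 6.96 and 7.05 in the controls against 8.27 and 8.19 in the cKO. For these 3 genes the controls lay close together, which ordering by the gap favours.

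Of the other genes of wide gap on the higher side, 3 were in the neutrophil list, 2 in the red cell precursor list and 2 in the cell cycle list. Gata1, the master factor of red cell and platelet precursors, read 5.14 and 4.97 in the controls against 6.69 and 7.01 in the cKO, at least 2.98-fold higher with the controls taken at 5.27. Hemgn, a nuclear protein of blood progenitors, read 5.06 and 6.33 in the controls against 7.68 and 7.48 in the cKO. Elane, Prtn3 and Mpo, which encode elastase, proteinase 3 and myeloperoxidase of neutrophil granules, were also among the 15. Rrm2, a subunit of the enzyme that makes deoxynucleotides, read 7.43 and 7.58 in the controls against 8.69 and 8.78 in the cKO, and Mki67, the proliferation marker, 7.0 and 7.32 in the controls against 8.30 and 8.74 in the cKO. Hp, the haemoglobin-binding plasma protein haptoglobin, read 5.26 and 5.66 in the controls against 6.73 and 6.70 in the cKO. All of these were higher against each control, and their limma adjusted p was 1.

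Kdm5d, a Y-linked histone demethylase, read 3.19 and 5.95 in the controls against 8.19 and 8.32 in the cKO. It was low on control base 2 although Uty was high there. Calb1, a calcium buffer of hair cells, read 5.81 and 6.01 in the controls against 7.05 and 7.52 in the cKO, and it was the 1 hair cell gene among the 15 with higher values. The remaining genes were Cysrt1 (4.95 and 6.02 in the controls against 7.42 and 7.15 in the cKO) and Atp8b4, a phospholipid flippase (5.43 and 4.83 in the controls against 6.52 and 6.61 in the cKO).

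On the lower side, 4 of the 15 genes of widest gap were hair cell genes and 2 were interferon-stimulated. Acbd7, an acyl-CoA-binding protein, read 7.28 and 7.07 on the control arrays and 5.71 and 5.86 on the cKO arrays, 2.62-fold lower in the cKO (-1.39 ± 0.26). Cabp2, a calcium sensor that keeps the calcium channels of the hair cell synapse open, read 8.32 and 8.22 in the controls against 6.41 and 7.16 in the cKO (-1.49 ± 0.30). Pcp4, a calmodulin-binding peptide, read 11.81 and 11.62 in the controls against 10.68 and 10.53 in the cKO (-1.11 ± 0.18). Fscn2, which cross-links the actin of stereocilia, read 6.15 and 6.18 in the controls against 5.08 and 4.43 in the cKO, at least 1.85-fold lower with cKO values under 5.27 raised to it. The controls were alike for all 4, which ordering by the gap favours, so the difference was similar against either control array.

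Oasl2 and Bst2, both induced by interferon, read 9.48 and 8.79 in the controls against 7.62 and 7.5 in the cKO and 8.21 and 7.5 in the controls against 6.49 and 6.65 in the cKO. Gt(ROSA)26Sor, a noncoding RNA made at Rosa26, read 9.72 and 9.31 in the controls against 7.74 and 8.42 in the cKO, and Rpgrip1, a scaffold of the connecting cilium, 9.95 and 9.99 in the controls against 9.12 and 9.04 in the cKO. Smim10l1, which encodes a small membrane protein, read 11.16 and 11.90 in the controls against 10.04 and 10.31 in the cKO, a difference of -1.35 ± 0.29, and its 3 other probe sets above the level gave -0.50, -0.45 and -0.46, so the size depends on the probe set. The other genes were St6galnac5, a sialyltransferase (7.23 and 7.31 in the controls against 5.79 and 6.35 in the cKO), Zar1, known from oocytes, Misp3, Mm2pr, 2610507I01Rik and 4930426D05Rik. Of the 30 genes of widest gap in both directions, 3 had other probe sets above the level, and all 6 of those probe sets differed in the same direction. The groups overlapped, however, on a further probe set of Rrm2 (2.76 and 6.55 in the controls against 6.54 and 6.70 in the cKO). They overlapped as well on that of St6galnac5 (7.127 and 6.215 in the controls against 6.399 and 5.864 in the cKO).

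**Figure D2:**
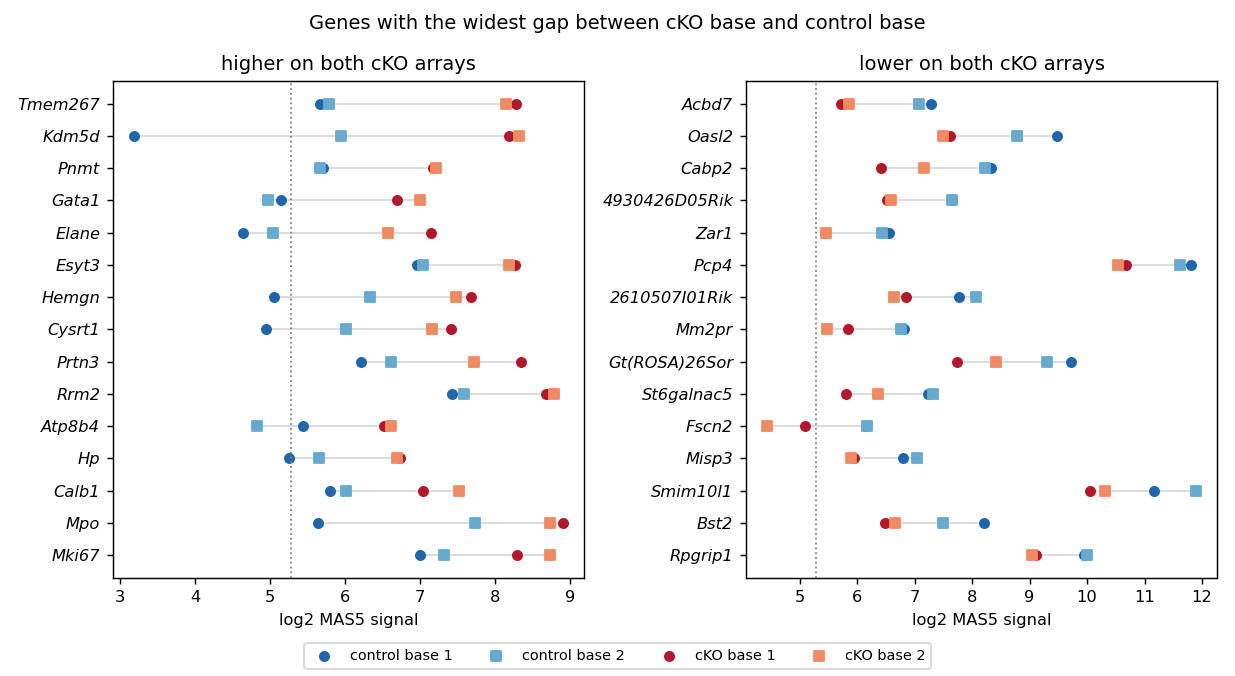
Log2 MAS5 signal of the 15 genes of widest gap on each side, with 1 point per basal array (circles, replicate 1; squares, replicate 2; blue, control; red and orange, cKO) and a dotted line at the filter level of 5.27. In the left panel both cKO points lie right of both control points and in the right panel left of them.

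The hair cell genes were described by role. Of 76 genes in 4 lists (bundle and mechanotransduction, transcription factors and soma, inner hair cell and ribbon synapse, outer hair cell), 64 had a probe set and 55 were tested. On both cKO arrays 15 of the 55 lay below both controls (27.3%, against 15.6% of all genes) and 5 above (9.09%, against 13.1%). An unadjusted p under 0.05 was reached by 12 on the lower side and 2 on the higher, and by 1.48% and 1.64% of all genes. The median difference was -0.05, against -0.002 over all genes tested, and the genes below both controls were a minority. By list the median was -0.003 for bundle genes, with 10 members higher and 10 lower. It was -0.3 for transcription factors and soma, 0.03 for inner hair cell and ribbon synapse and -0.33 for outer hair cell genes.

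Among bundle genes, 6 of 20 tested lay below both controls (30%, against 15.6% of all genes) and 2, Tmie and Espn, above (10%, against 13.1%). Strc, which encodes stereocilin, the protein that links outer hair cell stereocilia to each other and to the tectorial membrane, read 6.39 and 7.21 on the control arrays and 4.22 and 5.75 on the cKO arrays, at least 2.44-fold lower with cKO values under 5.27 raised to it. Tmc1, the pore of the transduction channel, read 5.58 and 5.8 in the controls against 4.85 and 4.20 in the cKO, at least 1.33-fold lower on the same terms. Lhfpl5, a membrane partner of that channel, read 9.63 and 9.06 in the controls against 8.90 and 8.24 in the cKO (-0.77 ± 0.31), and Pcdh15, a strand of the tip link that pulls on it, 7.26 and 7.05 in the controls against 6.46 and 6.70 in the cKO. For Tmc1, Lhfpl5 and Pcdh15 both cKO arrays were lower.

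Other parts of the bundle gave other values. Tmie, a further subunit of the transduction complex, read 7.78 and 7.98 in the controls against 8.72 and 8.28 in the cKO on its brightest probe set, but its second probe set above the level gave -0.24, so its direction is uncertain. Espn, an actin bundler, was at or near the filter level (4.22, 5.67, 5.68 and 6.04 in the order of control base 1, control base 2, cKO base 1, cKO base 2). Myo7a and Myo6, the unconventional myosins, overlapped between groups (-0.39 ± 0.31 and 0.05 ± 0.17), as did the tip link partner Cdh23, the scaffold Ush1c (0.01 ± 0.34), Eps8 (-0.01 ± 0.17) and the calcium pump Atp2b2. Within the transduction apparatus the differences were thus unequal. Without control base 1, 13 of the 20 bundle genes lay below the remaining control (65%, against 39% of all genes), and 4 above (20%, against 35.1%). Without control base 2, 10 lay below (50%, against 39.3%) and 9 above (45%, against 37.3%).

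At the synapse, 3 of 15 tested genes lay below both controls (20%) and 1 above (6.67%), shares near the 15.6% and 13.1% of all genes. Otof, whose product otoferlin couples calcium to vesicle release, read 8.94 and 8.18 on the control arrays and 6.97 and 7.45 on the cKO arrays, 2.55-fold lower (-1.35 ± 0.32, limma adjusted p = 1). Dnajc5b, a chaperone of synaptic vesicles, read 7.75 and 7.14 in the controls against 6.48 and 6.38 in the cKO (-1.02 ± 0.30). Together with Cabp2, these were the synaptic genes with an unadjusted p under 0.05. The calcium channel subunits Cacna1d and Cacnb2 overlapped between groups (0.20 ± 0.22 and 0.05 ± 0.26), and so did Ctbp2, which encodes the ribbon protein ribeye (-0.31 ± 0.25). Rims2, Bsn and Cabp1, which neurons also express, lay between the unlike controls on both cKO arrays: Bsn read 8.14 and 6.44 in the controls against 7.37 and 6.80 in the cKO.

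Among transcription factors and genes of the cell body, 5 of 14 tested lay below both controls (35.7%, against 15.6% of all genes) and 1, Calb1, above (7.14%, against 13.1%). Smpx, a small cytoskeletal protein whose loss causes deafness, read 9.78 and 9.41 on the control arrays and 8.57 and 8.60 on the cKO arrays (-1.01 ± 0.24). Rbm24, a splicing factor of hair cells, read 7.96 and 7.65 in the controls against 7.18 and 7.27 in the cKO, and Gfi1, a factor hair cells need to survive, 7.01 and 7.76 in the controls against 6.83 and 6.84 in the cKO. Pou4f3, another survival factor, was near the filter level and overlapped (5.07 and 6.15 in the controls against 4.55 and 5.14 in the cKO). Calb2 and Pvalb, calcium buffers of hair cells and neurons, overlapped as well, at 0.30 ± 0.38 and -0.05 ± 0.44. Leaving out control base 1, 7 of the 14 lay below the remaining control (50%, against 39% of all genes), and leaving out control base 2, 8 of 14 (57.1%, against 39.3%).

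Of 8 outer hair cell genes tested, Strc and Lmo7 lay below both controls (25%, against 15.6% of all genes) and Bcl11b above (12.5%, against 13.1%). Lmo7, a scaffold of the cuticular plate, read 10.85 and 11.35 in the controls against 10.27 and 10.52 in the cKO (-0.70 ± 0.27). Bcl11b, a zinc finger factor, read 6.36 and 6.14 in the controls against 7.16 and 7.11 in the cKO (0.89 ± 0.30). Kcnn2, the calcium-gated potassium channel of the efferent synapse, gave -0.31 ± 0.26, and Chrna9, the nicotinic receptor subunit that works with it, -0.69 ± 0.65, both with overlapping arrays. Beside these values, the summed signals of other cell types differed between the arrays in part: neuronal genes summed to 123100 and 44920 on the controls and 98250 and 67800 on the cKO arrays, and supporting cell genes to 120400 and 140200 against 138500 and 132900. Their part in the hair cell differences was not tested.

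**Figure D3:**
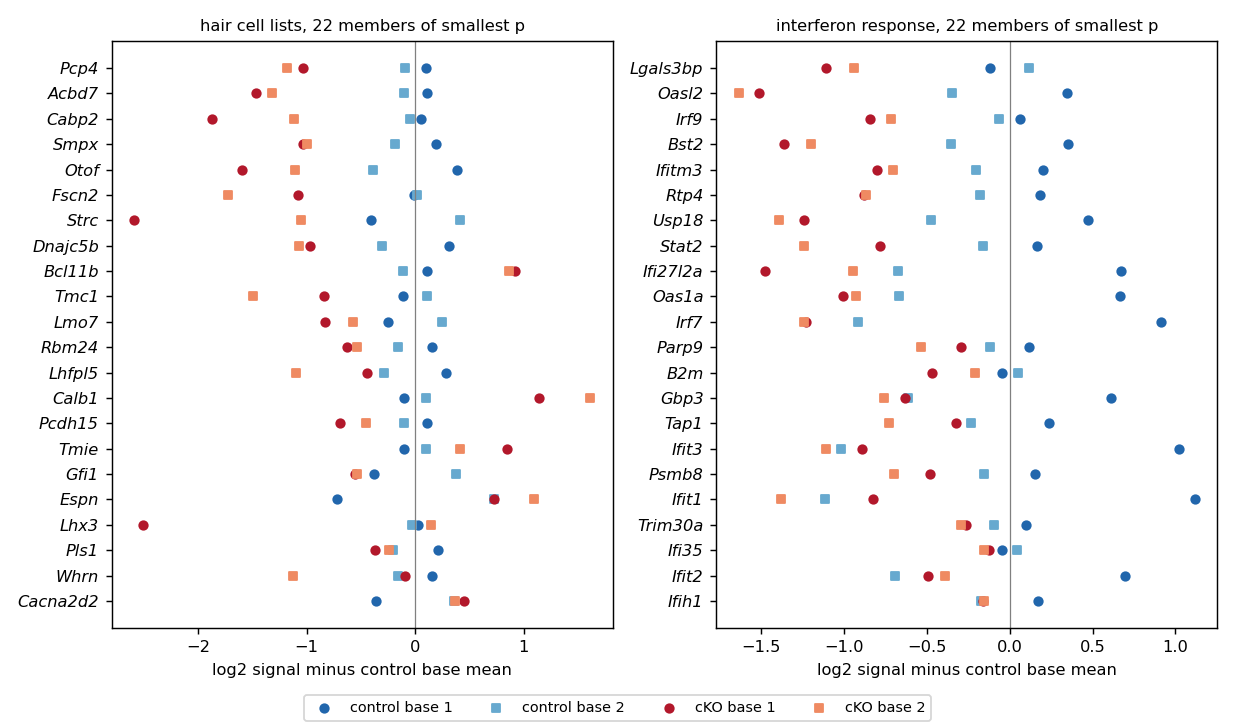
Log2 signal of each basal array minus the mean of the 2 controls, for the 22 members of smallest p from the hair cell lists (left) and from the interferon list (right), with 1 point per array. On the left Pcp4, Acbd7, Cabp2, Smpx and Otof have both cKO points below both control points and Calb1 and Bcl11b above, and on the right control base 1 is the highest point for most genes.

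Of 27 supporting cell genes tested, 18 had a lower mean in the cKO and 9 a higher one, with a median of -0.11. On both cKO arrays 6 lay below both controls (22.2%, against 15.6% of all genes) and 1 above (3.7%, against 13.1%). By limma 2 had an unadjusted p under 0.05, both lower (against 1.48% of all genes). Without control base 1, 13 lay below the remaining control (48.1%, against 39%) and 5 above (18.5%, against 35.1%). Without control base 2, 10 lay below (37%, against 39.3%) and 9 above (33.3%, against 37.3%). Jag1, a Notch ligand, read 9.36 and 9.33 in the controls against 8.57 and 8.93 in the cKO (-0.60 ± 0.19), although 1 of its 2 other probe sets above the level gave 0.15. Lfng, which modifies Notch, read 7.56 and 8.10 in the controls against 7.04 and 7.02 in the cKO (-0.80 ± 0.40), and Cdkn1b, the inhibitor that keeps these cells from dividing, gave -0.43 ± 0.20. Kcnj16, a potassium channel, read 11.40 and 11.80 in the controls against 11.09 and 11.20 in the cKO. The gap junction genes Gjb2 and Gjb6 gave 0.33 ± 0.19 and 0.10 ± 0.13 and Sox2 gave -0.27 ± 0.23, all with overlapping arrays.

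Interferon-stimulated genes were lower in the cKO base. Interferons act through the receptors' kinases on factors such as Stat2 and Irf9, which enter the nucleus and switch on antiviral genes by binding a short promoter element. Of 27 list members tested, 18 lay below both controls on both cKO arrays (66.7%, against 15.6% of all genes) and 1, Rsad2, above (3.7%, against 13.1%). The list's median was -0.69, and 10 members had an unadjusted p under 0.05, all lower, against 1.48% of all genes. Against control base 1 alone the median was -0.95 and against control base 2 alone -0.30. Control base 1 was the highest of the 4 arrays for 23 of the 27 (85.2%, against 31.6% of all genes). The sign of the list's median was thus the same against either control and its size was not.

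The core of an interferon response element (GAAA, any 2 bases, GAAA; on the other strand TTTC, any 2 bases, TTTC) was searched on both strands in RefSeq promoters of 300 bases, 250 before and 50 after the start. It occurred in 14 of 26 list members in that table (53.8%) and in 1079 of all 27025 genes (3.99%). Among tested members it occurred in 7 of 14 that were lower on both cKO arrays and in 5 of 9 that were not, so the letters did not separate them. Of the tested members that were lower on both cKO arrays and had a match, the 3 of smallest p are shown. They run 5′ to 3′ on the strand of the gene, with matches in capitals, overlapping matches being joined. Their windows on GRCm38.p6 are chr7:141010695-141010994 on the minus strand, chr8:71537423-71537722 on the minus strand and chr10:128270248-128270547 on the plus strand.
Ifitm3: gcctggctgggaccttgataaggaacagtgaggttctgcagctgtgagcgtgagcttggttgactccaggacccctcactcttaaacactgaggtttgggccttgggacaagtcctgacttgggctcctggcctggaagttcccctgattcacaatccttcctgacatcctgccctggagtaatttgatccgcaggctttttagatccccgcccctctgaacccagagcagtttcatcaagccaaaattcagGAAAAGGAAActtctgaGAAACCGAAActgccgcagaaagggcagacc
Bst2: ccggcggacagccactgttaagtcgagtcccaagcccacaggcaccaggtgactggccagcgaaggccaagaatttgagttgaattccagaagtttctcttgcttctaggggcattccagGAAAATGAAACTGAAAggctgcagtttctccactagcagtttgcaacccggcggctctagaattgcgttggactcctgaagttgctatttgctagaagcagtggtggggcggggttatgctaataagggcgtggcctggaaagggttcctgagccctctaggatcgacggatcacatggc
Stat2: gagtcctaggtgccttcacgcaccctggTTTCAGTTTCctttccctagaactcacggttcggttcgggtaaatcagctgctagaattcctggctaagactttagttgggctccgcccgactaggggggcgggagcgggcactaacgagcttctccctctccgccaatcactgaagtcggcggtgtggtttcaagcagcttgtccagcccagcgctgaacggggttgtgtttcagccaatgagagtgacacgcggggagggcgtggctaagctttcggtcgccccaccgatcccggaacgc

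Ifitm3, a membrane protein that blocks virus entry, read 11.97 and 11.57 on the control arrays and 10.97 and 11.06 on the cKO arrays (-0.75 ± 0.21) and has 2 matches, both after the start of the gene. Bst2, which encodes tetherin, a protein that holds budding viruses at the cell surface, has 2 matches that overlap. Stat2 read 6.96 and 6.63 in the controls against 6.01 and 5.56 in the cKO (-1.01 ± 0.36) and has 1 match on the other strand. That all 3 were lower on both cKO arrays than on either control was a condition of their choice and is not a result.

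The signal transducers and effectors were ordered by role. Irf9, the DNA-binding partner of Stat2, read 9.24 and 9.11 in the controls against 8.33 and 8.46 in the cKO (-0.78 ± 0.18), with the controls alike. Irf7, the factor that amplifies interferon production, read 9.22 and 7.39 in the controls against 7.07 and 7.06 in the cKO, and Usp18, an inhibitor that dampens the receptor, 9.06 and 8.12 in the controls against 7.35 and 7.19 in the cKO (-1.32 ± 0.45). For Irf7 the difference was mainly against control base 1. Lgals3bp, a secreted glycoprotein, read 10.06 and 10.29 in the controls against 9.07 and 9.24 in the cKO, 2.03-fold lower (-1.02 ± 0.20), with control base 2 the higher control. Rtp4 read 10.19 and 9.83 in the controls against 9.13 and 9.14 in the cKO and Ifi27l2a 10.08 and 8.74 in the controls against 7.94 and 8.46 in the cKO. The RNA-binding effectors Ifit1 and Ifit3 were high on control base 1 alone, at 9.72, 7.49, 7.78 and 7.23 and 10.60, 8.55, 8.68 and 8.46 in the order of control base 1, control base 2, cKO base 1, cKO base 2.

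Of genes in the list that serve antigen presentation, B2m gave -0.34 ± 0.18, Tap1 -0.53 ± 0.30 and Psmb8 -0.59 ± 0.35, each below both controls. Rsad2, an antiviral enzyme, read 10.11 and 10.07 in the controls against 10.46 and 10.36 in the cKO, and the sensor Ifih1 10.43 and 10.08 in the controls against 10.10 and 10.10 in the cKO. A count of genes below the controls cannot fall when a control is left out. Without control base 1 it stayed at 18 of the 27 (66.7%), while the share of all genes rose from 15.6% to 39%. Without control base 2, 26 of 27 lay below the remaining control (96.3%, against 39.3%). Of 19 macrophage genes measured beside them, 2 lay above both controls (10.5%, against 13.1% of all genes) and 1 below (5.26%, against 15.6%), with a median of 0.08. That median was 0.36 against control base 1 alone and -0.16 against control base 2 alone, and without control base 1, 11 of the 19 lay below the remaining control (57.9%, against 39%). Their part in the interferon values was not tested.

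Genes of neutrophil granules were higher in the cKO base. The granules are filled in bone marrow precursors, and their proteins kill microbes. Of 17 members tested, 13 lay above both controls (76.5%, against 13.1% of all genes) and 0 below (against 15.6%). On the higher side 10 had an unadjusted p under 0.05, against 1.64% of all genes. The median difference was 1.21, and 1.58 and 0.78 against control base 1 and control base 2 alone. Control base 1 was the lowest of the 4 arrays for 16 of the 17 (94.1%, against 31.5%).

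Early granule genes read as follows. Mpo gave 5.64 and 7.74 on the control arrays and 8.91 and 8.73 on the cKO arrays (2.13 ± 0.59), Prtn3 6.21 and 6.61 in the controls against 8.34 and 7.72 in the cKO (1.62 ± 0.36) and Ctsg, cathepsin G, 3.27 and 5.26 in the controls against 6.06 and 6.99 in the cKO. Later granule genes were at higher signals. Camp, the antimicrobial peptide cathelicidin, read 8.31 and 8.89 in the controls against 10.10 and 9.65 in the cKO (1.28 ± 0.29), Ngp, a neutrophil granule protein, 9.64 and 10.40 in the controls against 11.23 and 11.12 in the cKO (1.16 ± 0.28), Ltf, lactoferrin, 7.93 and 8.35 in the controls against 8.93 and 9.19 in the cKO (0.93 ± 0.22), and S100a8, a subunit of the calcium-binding calprotectin, 9.59 and 10.32 in the controls against 11.26 and 11.49 in the cKO (1.42 ± 0.36). Early and late genes were thus higher together on both cKO arrays. Without control base 1, 13 of the 17 lay above the remaining control (76.5%, against 35.1% of all genes). Without control base 2, 16 did (94.1%, against 37.3%), and Mpo and Hemgn passed limma's adjusted threshold.

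Genes of red cell precursors lay on the same side less uniformly. Of 14 tested, 7 lay above both controls (50%, against 13.1% of all genes) and 0 below (against 15.6%), with a median of 0.59. The 7 became 11 without control base 2 (78.6%, against 37.3%) and 9 without control base 1 (64.3%, against 35.1%). The median was 0.26 without control base 1 and 1.00 without control base 2. Beside Gata1 and Hemgn, Epor, the erythropoietin receptor, read 5.97 and 6.30 in the controls against 7.30 and 6.58 in the cKO and Slc4a1, the anion exchanger band 3, 6.36 and 8.23 in the controls against 8.38 and 8.31 in the cKO. Alas2, the first enzyme of haem synthesis in red cells, was lowest on control base 1 and highest on control base 2 (8.83 and 10.77 in the controls against 10.48 and 9.75 in the cKO), and Klf1 overlapped as well (0.48 ± 0.50). Precursor B cell genes gave a median of 0.25, with 3 of 12 above both controls (25%, against 13.1%), and the median was 0.09 without control base 1 and 0.40 without control base 2. Bone and osteoclast genes gave 0.31, with 5 of 14 above both controls (35.7%, against 13.1%), but cKO base 1 stood apart there. Acp5, an osteoclast phosphatase, read 5.47 and 7.59 in the controls against 10.69 and 6.74 in the cKO. Mmp13, a bone collagenase, read 3.96 and 5.66 in the controls against 9.0 and 5.66 in the cKO.

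Of 25 cell cycle genes tested, 11 lay above both controls (44%, against 13.1% of all genes) and 1, Plk1, below (4%, against 15.6%). Ube2c, a ubiquitin-conjugating enzyme of mitosis, read 5.39 and 5.03 in the controls against 6.14 and 6.25 in the cKO. Cdc20, another mitotic gene, read 8.69 and 8.55 in the controls against 8.87 and 9.43 in the cKO. Plk1, a mitotic kinase, read 7.62 and 7.92 in the controls against 7.10 and 7.04 in the cKO (-0.70 ± 0.28). The replication helicase subunits Mcm2, Mcm3, Mcm5 and Mcm6 overlapped, at 0.26 ± 0.30, 0.22 ± 0.37, 0.43 ± 0.33 and 0.18 ± 0.23, as did Pcna (0.03 ± 0.19). Control base 1 was the lowest array for 18 of the 25 (72%, against 31.5%), and without control base 2 the 11 became 20 (80%, against 37.3% of all genes), without control base 1 12 (48%, against 35.1%) and without cKO base 1 17 (68%, against 25.9%). Beside these genes, the summed signal of the neutrophil list was 6779 and 18580 on the controls and 23160 and 19250 on the cKO arrays, and that of the red cell list 10670 and 17850 against 22410 and 19010. Their part in the cell cycle values was not tested.

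**Figure D4:**
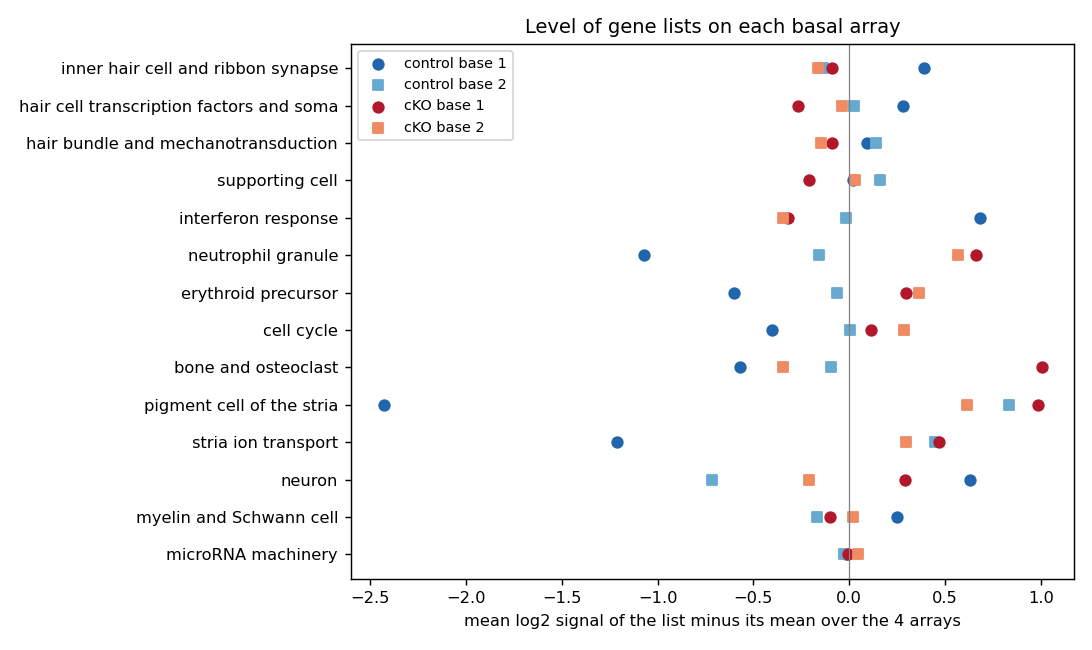
Mean log2 signal of the tested members of 14 gene lists on each basal array, minus the mean of the 4 arrays. Both cKO points lie right of both controls for the neutrophil, erythroid and cell cycle lists, and by little for the microRNA list. They lie left of both for the interferon list, the hair bundle list and the list of hair cell transcription factors and soma. The pigment, strial and neuronal lists are ordered by the unlike controls.

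Strial and neuronal genes mainly separated the controls rather than the genotypes. The 11 pigment cell genes tested gave the median of 1.48, which was 2.14 against control base 1 and -0.18 against control base 2. Tyr, the first melanin enzyme, read 2.89 and 10.17 on the control arrays and 10.28 and 9.45 on the cKO arrays, and Mlana, a melanosome protein, 2.15 and 8.47 in the controls against 8.86 and 7.72 in the cKO. Pmel, which forms the fibrils of the melanosome, was the member that lay above both controls with an unadjusted p under 0.05 (7.31 and 8.63 in the controls against 10.11 and 8.80 in the cKO). Ion transport genes of the stria gave 0.39, and 0.95 and -0.08 against each control, with Kcnq1 at 7.05 and 10.64 in the controls against 10.77 and 10.45 in the cKO and Atp1b2, a sodium pump subunit, at 11.31 and 13.22 in the controls against 13.43 and 13.28 in the cKO. Of the 13 tested, 3 lay above both controls (23.1%, against 13.1% of all genes) and 0 below (against 15.6%). The 3 were Atp1b2, Lrp2 and Slc12a2. Slc12a2 gave 0.22 ± 0.15, and its other probe sets above the level gave 1.02 and 0.76, also above both controls.

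0 of 23 neuronal genes tested separated the genotypes (0%, against 28.7% of all genes in either direction). Control base 1 was the highest array and control base 2 the lowest for 18 of the 23 (78.3%, against 15.9% of all genes). Tubb3, a neuronal tubulin, read 10.81 and 8.92 in the controls against 9.91 and 8.93 in the cKO, and Nefm, a neurofilament, 13.06 and 11.13 in the controls against 12.80 and 12.17 in the cKO. Myelin genes were in the same order for 7 of 13, with Mbp at 0.07 ± 0.11 and Fa2h, a lipid hydroxylase of myelin, above both controls (11.38 and 10.41 in the controls against 11.42 and 11.60 in the cKO). The neuronal list's median of 0.07 was -0.68 against control base 1 alone and 0.91 against control base 2 alone.

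Of 20 fibrocyte genes 5 lay above both controls (25%, against 13.1% of all genes) and 1 below (5%, against 15.6%), with a median of 0.15, Coch, the main protein of the spiral ligament, at 0.26 ± 0.16, and Otor at 0.25 ± 0.13. Of 14 genes of the tectorial membrane and spiral limbus, 7 lay above both (50%, against 13.1% of all genes) and 0 below (against 15.6%), with a median of 0.21. Without control base 1 the share above the remaining control was 50% (against 35.1% of all genes), and without control base 2 it was 78.6% (against 37.3%). Those 7 were the collagens Col9a1 (0.28 ± 0.13), Col9a2, Col11a1, Col11a2 (0.42 ± 0.21), Col2a1 and Col5a2, and the hyaluronan-binding Itih5. By limma 0 of the 14 had an unadjusted p under 0.05, and Col5a2 and Itih5 cleared the controls by only 0.003 and 0.017. Other probe sets above the level gave 0.234 for Col9a1, 0.145 for Col11a1 and -0.04 and 0.244 for Itih5, all with overlapping arrays. That of Col5a2 gave 0.225, with both cKO arrays above both controls. Tectb, which encodes beta-tectorin, read 5.71 and 7.93 in the controls against 6.38 and 8.71 in the cKO, low against its apical values of 12.52 to 13.48.

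Stress genes were high on 1 cKO array. Fos, an early response factor, read 9.25 and 9.44 on the control arrays and 12.02 and 9.75 on the cKO arrays, Atf3, a stress-induced factor, 7.03 and 6.58 in the controls against 9.29 and 7.41 in the cKO, and Egr1, another early factor, 10.60 and 11.31 in the controls against 12.47 and 11.40 in the cKO. Only cKO base 1 stood far above the controls for these 3. Of the 21 early response and heat shock genes tested, cKO base 1 was the highest array for 13, 4 lay above both controls (19%, against 13.1% of all genes) and 1 below (4.76%, against 15.6%). Tnc, a matrix protein of injury, had the same pattern (6.07 and 5.98 in the controls against 8.13 and 6.11 in the cKO). In the injury list, 4 of 16 lay above both controls (25%, against 13.1% of all genes), led by Lgals3, a galectin of activated macrophages (6.76 and 7.28 in the controls against 8.28 and 7.92 in the cKO, 1.08 ± 0.32), and Serpina3n, a secreted protease inhibitor (9.05 and 9.33 in the controls against 9.68 and 10.05 in the cKO, 0.68 ± 0.22). Gfap, the glial filament, overlapped (5.93 and 7.93 in the controls against 6.0 and 4.83 in the cKO).

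Of 19 p53 and cell death genes tested, 8 lay above both controls (42.1%, against 13.1% of all genes) and 0 below (against 15.6%), with a median of 0.15. Cdkn1a, the p53-induced inhibitor p21, read 13.14 and 13.17 in the controls against 13.49 and 13.39 in the cKO (0.29 ± 0.10). Bcl2l11, which encodes the death inducer Bim, read 11.58 and 11.11 in the controls against 12.27 and 11.84 in the cKO (0.71 ± 0.24), and its 3 other probe sets above the level gave 0.37, -0.24 and 1.27. Bid, which links death receptors to mitochondria, read 7.01 and 6.76 in the controls against 7.5 and 7.11 in the cKO, while the p53 targets Mdm2, Phlda3 and Bbc3 overlapped. Clock genes gave a median of -0.09, with 4 of 16 below both controls (25%, against 15.6%) and 2 above (12.5%, against 13.1%). Hlf, a clock output factor, read 10.55 and 11.75 in the controls against 11.96 and 12.16 in the cKO. Its other probe set, also above the level, gave 0.22 with overlapping arrays.

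Among genes of the microRNA pathway, 6 of 18 tested lay above both controls (33.3%, against 13.1% of all genes) and 4 below (22.2%, against 15.6%), with a median of -0.04. Ago3, one of the Argonaute proteins that carry microRNAs, read 7.68 and 7.57 on the control arrays and 8.33 and 8.47 on the cKO arrays, 1.71-fold higher (0.78 ± 0.22), and was the 1 member with an unadjusted p under 0.05. Its other probe sets above the level gave 0.26 and 0.07, both with overlapping arrays. Ago1 (0.30 ± 0.21) and Ago2 (0.31 ± 0.18) lay above both controls as well, and Ago4 overlapped (-0.35 ± 0.26). Dgcr8, the partner of Drosha in the nuclear step, read 8.91 and 8.68 in the controls against 9.21 and 9.03 in the cKO. Its other probe set above the level gave 0.06 with overlapping arrays, and Drosha overlapped. Tarbp2 and Prkra, the partners of Dicer1 protein, lay below both (-0.29 ± 0.18 and -0.20 ± 0.15), as did Mov10 and Snd1.

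Reported targets of the miR-183 family were examined because hair cells make these microRNAs through Dicer1. The mature sequences are shown from RefSeq, GRCm38.p6, 5′ to 3′, with the seed (bases 2 to 8), which pairs with the target, in capitals. All 3 lie on the minus strand at chr6:30169711-30169732, chr6:30169506-30169528 and chr6:30165962-30165986, and each has a seed of its own.
mmu-miR-183-5p: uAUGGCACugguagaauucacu
mmu-miR-96-5p: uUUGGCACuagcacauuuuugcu
mmu-miR-182-5p: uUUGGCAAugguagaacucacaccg

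The levels of the microRNAs themselves were not analysed here. Of 20 reported targets tested, 4 lay above both controls (20%, against 13.1% of all genes) and 2 below (10%, against 15.6%), with a median of 0.08 and 0 members at an unadjusted p under 0.05. Nr3c1, the glucocorticoid receptor, read 10.93 and 11.06 in the controls against 11.24 and 11.34 in the cKO (0.29 ± 0.14), Foxo1 11.13 and 11.50 in the controls against 11.60 and 11.75 in the cKO (0.36 ± 0.20) and Rdx, which encodes radixin of the stereocilia, 12.30 and 12.30 in the controls against 12.48 and 12.40 in the cKO. Other probe sets of Nr3c1 above the level gave 0.07 and -0.07, and those of Foxo1 -0.05 and 0.26, all with overlapping arrays. Egr1 was the fourth target above both controls, and it was high on cKO base 1 alone. Foxo3 and Celsr2 lay below both (-0.26 ± 0.24 and -0.18 ± 0.17). The share above both controls was near that of all genes.

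The neighbours of Dicer1 and Tmem267 on their chromosomes were read in RefSeq order. The tested genes on either side of Dicer1 both lay above both controls, Serpina3n as given above and Clmn, an actin-binding membrane protein, at 10.23 and 10.62 in the controls against 10.96 and 11.10 in the cKO (0.60 ± 0.19). Of the 20 nearest tested genes, 3 had an unadjusted p under 0.05 (against 3.12% of all genes), the third being the interferon gene Ifi27l2a. Around Tmem267, 1 of 14 did, the adjacent 4833420G17Rik, which read 9.63 and 8.94 in the controls against 10.24 and 9.97 in the cKO (0.82 ± 0.30). In the apex 4833420G17Rik, higher, and Pelo, Nnt, Paip1 and Nim1k, all lower, had an unadjusted p under 0.05 by limma (against 2.19% of all genes). Around Dicer1, Serpina3n and Ifi27l2a did so in the apex.

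The basal differences were set beside those of the apical arrays, which have controls of their own but presumably come from the same mice. The difference between the genotype effects passed limma's adjusted threshold for 0 genes (0%), whereas 149 genes (1.13%) had an unadjusted p under 0.05 for it. Of the 30 genes of widest basal gap, 7 of the 15 higher ones were above both apical controls as well (against 15% of all genes) and 8 of the 15 lower ones below both (against 16.2%). Tmem267 gave 2.48 ± 0.25 in the base and 2.57 ± 0.25 in the apex, Pnmt 1.5 ± 0.29 and 1.55 ± 0.29, and Gt(ROSA)26Sor -1.44 ± 0.30 and -1.53 ± 0.30. These 3 genes differed alike in both regions.

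Several hair cell genes did not. Pcp4 gave -1.11 ± 0.18 in the base and 0.13 ± 0.18 in the apex, a difference of -1.24 ± 0.26. Cabp2 gave -1.49 ± 0.30 and -0.14 ± 0.30, and Fscn2 -1.40 ± 0.37 and 0.08 ± 0.37. Smpx gave -1.01 ± 0.24 and -0.10 ± 0.24, and Strc -1.82 ± 0.52 and 0.40 ± 0.52. Each of these 5 differences had an unadjusted p under 0.05 and an adjusted p of 1 by limma. The 5 genes were named for their basal values, which favours a larger difference in the base. Otof was lower in both regions (-1.35 ± 0.32 and -0.61 ± 0.32). Over the 4 hair cell lists the median was -0.05 in the base and 0.07 in the apex.

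Blood and division genes among those of widest basal gap were chosen for their basal values, which favours a larger difference in the base. Gata1 gave 1.79 ± 0.32 in the base and -0.02 ± 0.32 in the apex, Mki67 1.36 ± 0.31 and -0.11 ± 0.31, and Rrm2 1.23 ± 0.30 and 0.05 ± 0.30, while Elane gave 2.02 ± 0.68 and 2.11 ± 0.68. For Gata1, Elane, Fscn2 and Strc the low basal group lies under the filter level, so the sizes of these differences are imprecise. The adjusted p of the difference between the regions was 1 by limma for Gata1, Mki67 and Rrm2. The neutrophil list's median was 1.21 in the base and 0.23 in the apex, and the interferon list's -0.69 and -0.44. Lgals3bp, Rtp4, Bst2, Ifitm3 and Ifi27l2a had an unadjusted p under 0.05 in both regions, all lower. In all, 44 genes did (10.7% of the basal 413 and 15.2% of the apical 290, which were 2.19% of all genes), 24 higher in both, 18 lower in both and 2, Uroc1 and Steap4, in opposite directions. Others among the 44 were Slc25a29, a mitochondrial carrier (-0.80 ± 0.21 and -0.75 ± 0.21), Ang, a secreted ribonuclease (-1.11 ± 0.31 and -0.99 ± 0.31), and Camkk2, a calcium-activated kinase (0.67 ± 0.19 and 0.60 ± 0.19).

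**Figure D5:**
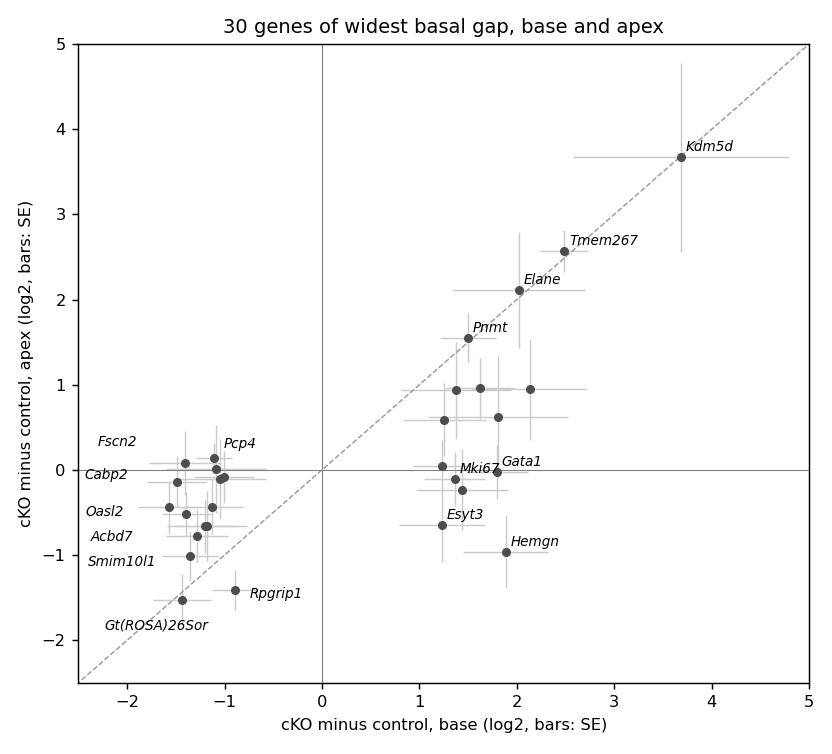
Log2 difference, cKO minus control, in the base (horizontal axis) and in the apex (vertical axis) for the 30 genes of widest basal gap, with limma's SE as bars and the line of equality dashed. Tmem267, Pnmt, Elane and Kdm5d lie on the line, Pcp4, Cabp2, Fscn2, Gata1 and Mki67 lie near 0 in the apex, and Hemgn lies above 0 in the base and below 0 in the apex.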

How the data were processed

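Gene expression was measured on 8 Affymetrix arrays, of which 4 are compared here. Per the labels' protocols, RNA was purified by mirVana and amplified over 2 labelling cycles. The deposited values are linear intensities of probe sets, scaled by the authors to a trimmed mean of 500 (2% off each end, checked on the values). The submitters' processing notes name MAS5 and affy 1.26. Detection calls were not used here.

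The 45101 probe sets were named by the supplied platform annotation: 34945 had 1 gene, 932 several and 9160 none listed, and 64 were array controls. Symbols were updated through Entrez identifiers (34741 matched). Values were log2 transformed without pseudocount. A model of 4 group means over all 8 arrays was fitted in limma 3.58.1 (R 4.3.3) with an intensity trend and two-sided tests, with Benjamini-Hochberg adjustment over the 13221 genes tested. The number of arrays limits the precision. The procedure was tested on simulated data.

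Named were Dicer1 and 11 marker genes always, the 15 genes of widest gap in each direction, up to 6 members of smallest p of each of 27 gene lists, and the 10 genes highest and lowest on control base 1 against control base 2; other list members given in the text, and genes named for both regions or for their place beside Dicer1 and Tmem267, were chosen after their values were seen. The gene lists, comparisons and naming rule were chosen with earlier results of these data known. Endothelial genes gave a median of -0.06, skeletal muscle genes 0.43 with 7 of 16 tested, and sex-linked genes 2.83 with 4 tested.

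Replicate numbers tie the apical and basal sample of a presumed mouse. Their deviations correlated across genes at r = 0.339 in controls and 0.068 in cKO, and between genotypes at 0.177 in the base, where the labels give numbers no shared meaning. Alternatives changed the filter, a pseudocount of 16, the normalization, low values, the probe set of a gene, the variance model, the arrays fitted, the replicate block and the arrays left out. Counts of list members without each basal array were added after the data were seen. Such a count cannot fall when an array is left out, so it is read beside the share of all genes.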

Additional observations from a re-analysis of the deposited data

Results flagged for a closer look

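Hemgn, a nuclear protein of blood progenitors, was higher on both cKO arrays in the base (5.06 and 6.33 in the controls against 7.68 and 7.48 in the cKO, 1.88 ± 0.43) and lower on both in the apex (7.74 and 7.94 in the controls against 6.63 and 7.14, -0.96 ± 0.43). The difference between the regions was 2.84 ± 0.61 (log2, SE; limma unadjusted p = 0.00198, adjusted p = 1), which does not pass the adjusted threshold. No cause was tested. The flag covered only the 30 genes of widest basal gap. Among other named genes, Strc, Pcdh15 and Rbm24 were lower on both cKO arrays in the base and higher on both in the apex. In the apex the nearest control and cKO arrays were almost equal for Strc (8.767 and 8.768) and Rbm24 (9.011 and 9.027). The apical unadjusted p by limma was 0.471 for Strc, 0.21 for Pcdh15 and 0.306 for Rbm24. Epor, Atf3 and Pmel, among others, were higher on both in the base and lower on both in the apex. Each group holds 2 arrays, so single arrays were not tested for standing apart.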

How the results depend on the processing

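The count of genes at an adjusted p under 0.05 was 0 in the other settings, among them an adjusted threshold of 0.1, and 1 without the intensity trend (Tmem267). Leaving out 1 basal array gave 0 to 37, the 37 without control base 2, where Tmem267, Hemgn, Mpo and Car2 passed. The count at an unadjusted p under 0.05, 413, was 688 without the filter, 254 on the basal arrays alone and 235 to 1678 with 1 array left out (1238 without control base 1, 1678 without control base 2, 235 without cKO base 1). The count with a gap of at least 1, 17, was 6 with the filter at the 60th percentile, 10 with a pseudocount of 16, 26 when probe sets of a gene were averaged and 66 to 414 with 1 array left out (266 and 414 without control base 1 and 2, 66 and 95 without cKO base 1 and 2). The count for the difference between base and apex, 149, was 389 without the filter and 112 to 955 with 1 array left out (955 without control base 1, 681 without control base 2, 230 without control apex 2). With a replicate block for the presumed mouse as a random term (correlation 0.236) the 3 counts were 0, 400 and 273, and with the replicate number as a fixed term 0, 529 and 191.

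Of 27 list medians, 19 moved by more than the spread between replicates in some setting, 11 of them without control base 1 and 12 without control base 2, and 15 changed sign in some setting. Of 80 named genes, 8 changed sign somewhere. Dicer1 gave 0.008 after quantile normalization and 0.002 after centring on the 75th percentile, Mbp -0.026 after quantile normalization and -0.069 when probe sets were averaged, Tmie -0.12 and Dmp1 -0.066 then. With 1 basal array left out, Dicer1 ranged from -0.182 to 0.145 (above 0 without control base 1 or cKO base 2), Mbp from -0.004 (without control base 2) to 0.149, Sox2 from -0.598 to 0.053 (without control base 1), Dct from -0.103 (without control base 1) to 7.82, Tubb3 from -1.397 to 0.492 (above 0 without control base 1 or cKO base 2) and Tectb from -0.44 to 1.888 (below 0 without cKO base 2 or control base 1). The cause was not tested. Averaging probe sets left no value for the sex-linked list. With 2 mice per genotype and unlike controls, small differences could not be resolved.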
